A study of Mus musculus with 12 samples.

Results

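The comparison is between mice that lack Psmb11 and wild-type mice in mTEC hi, the medullary thymic epithelial cells with high surface MHC class II. It takes 6 of the 12 libraries in the series. The 3 libraries titled KO are set against the 3 titled WT, and the genotype comes from the title. The strain field names one line, B6.B6CB-Psmb11tm1Smta, as Psmb11-/- for deficient mice and Psmb11+/+ for WT mice. All groups are given as 6 to 8 weeks old, and the RNA was polyadenylated RNA from thymus. The other 6 libraries are mTEC lo, the cells with low MHC class II, also with 3 KO and 3 WT titles. Sex, the number of animals per library and the way the cells were isolated are not given in the sources used here. No label ties a library to its own animal, so each p-value reflects library-to-library spread only, which may be technical.

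The labels of 2 of the 6 libraries contradict themselves. The library titled WT with number 1 has a source name and a strain that say Psmb11-deficient, and the library titled KO with number 3 has a source name and a strain that say WT. The same holds for numbers 1 (WT) and 3 (KO) of mTEC lo. The titles are used throughout. Results that rest on these libraries are also given from the 4 libraries whose labels agree, which are KO 1 and 2 and WT 2 and 3.

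Psmb11 encodes beta5t, the catalytic beta5-type subunit of the thymoproteasome. Proteasomes cut cytosolic proteins into peptides for MHC class I, and the beta5 position can be filled by the constitutive subunit Psmb5, the immunoproteasome subunit Psmb8 or the thymus-specific Psmb11. Psmb11 is known as a gene of cortical thymic epithelial cells, where it shapes the peptides used to select CD8 T cells. Medullary cells with high MHC class II are known for Aire and for the display of tissue-restricted antigens to developing T cells. The series asks which genes differ between the genotypes.

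Reads counted in genes ranged from 42449759 to 86793594 in KO and from 38791960 to 76801850 in WT. Epcam, a surface protein of epithelial cells, was at 654 to 705 CPM in the 6 libraries, Aire at 1844 to 2488 and the class II chain H2-Aa at 5859 to 6318, so the labelled cell type had its markers in every library. CPM are read counts scaled to a common library size, here with TMM size factors. Among the markers of other cell types reported here none was at 0, and the thymocyte gene Cd3e, a chain of the T cell receptor complex, was at 1.65 to 5.14 CPM.

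Psmb11 (chr14:54621433-54629556, plus strand, GRCm38) was at 0.94, 1.44 and 1.23 CPM in KO 1, 2 and 3. It was at 8.99, 11.4 and 8.32 CPM in WT 1, 2 and 3. Every library titled KO was below every library titled WT, including the 2 libraries with contradictory labels. The level fell by 3.01 on the log2 scale (SE 0.18, adjusted p = 2.12e-07), and it fell by 3.09 in the 4 libraries with agreeing labels. Reads remained in the KO libraries, where 53, 60 and 106 reads were counted against 478, 867 and 320 in WT 1, 2 and 3. With the genotype taken from the source name instead, the difference was -0.85 (adjusted p = 0.837).

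The other beta5 genes did not pass the test. Psmb5 was at 44.7, 45.5 and 37.0 CPM in KO 1, 2 and 3 and at 38.9, 39.6 and 40.6 CPM in WT 1, 2 and 3, a log2 difference of 0.09 (SE 0.08, adjusted p = 0.988). Psmb8 was at 108.8, 111.0 and 97.4 CPM in KO and at 102.7, 108.3 and 110.7 CPM in WT, a difference of -0.02 (SE 0.07, adjusted p = 0.992). For both genes KO 3 was the lowest of the 6 libraries and the groups overlapped. The sign for Psmb8 turned when KO 3 was left out (0.035) and in the 4 libraries with agreeing labels (0.0047). On the length-corrected scale of deposited TPM, which compares transcripts of different length, WT libraries held 2.98 to 3.95 of Psmb11, 159 to 173 of Psmb5 and 243 to 255 of Psmb8. In KO libraries the TPM of Psmb11 were 0.20, 0.59 and 0.39.

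**Figure D1:**
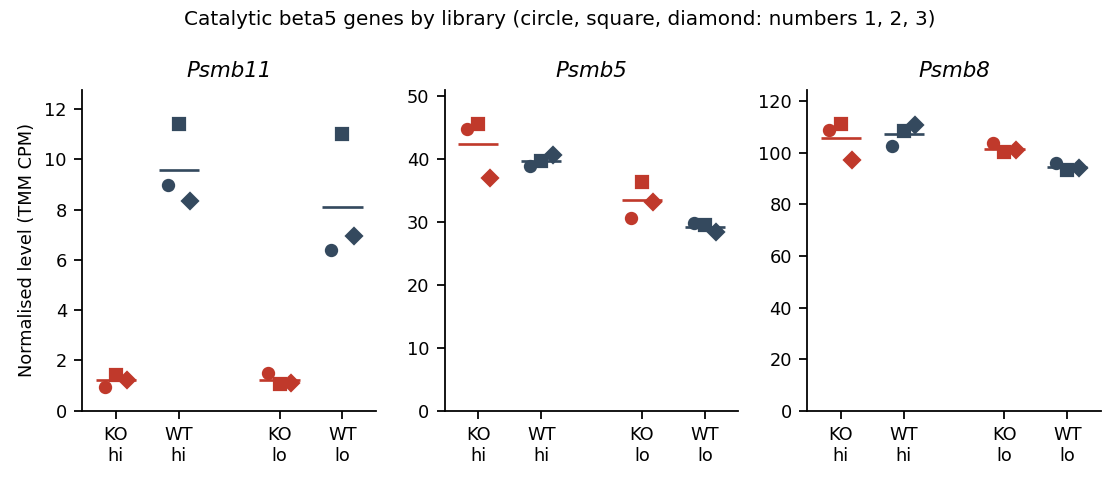
Normalised level (TMM CPM) of Psmb11, Psmb5 and Psmb8 in each KO and WT library of mTEC hi and mTEC lo; bars are group means and symbols give the library number. Psmb11 in mTEC hi lay between 0.94 and 1.44 CPM in KO and between 8.32 and 11.4 CPM in WT, while the mTEC hi groups overlapped for Psmb5 and Psmb8.

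Across the whole table, 25114 genes had enough reads to be tested and 3 of them, 0.0119%, passed an adjusted p of 0.05. Psmb11 was the 1 lower gene (0.00398% of genes tested), and the 2 higher ones (0.00796%) were the processed pseudogenes Gm6166 and Gm13456. Before adjustment, 1321 genes (5.26%) lay under 0.05, of which 568 were higher (2.26%) and 753 lower (3%) in KO. By fitted fold change 49.7% of genes were above WT. On data simulated from these libraries, the same test recovered 72% of genes changed by 1.5-fold and 94% of those changed 2-fold, each over 50 genes. Changes were planted only in genes above an expression floor, so the rates leave out the low genes among those tested. Many planted changes also make the adjusted cutoff easier to pass than in real data with 3 calls. The rates therefore cannot tell how many real changes of this size were missed.

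**Figure D2:**
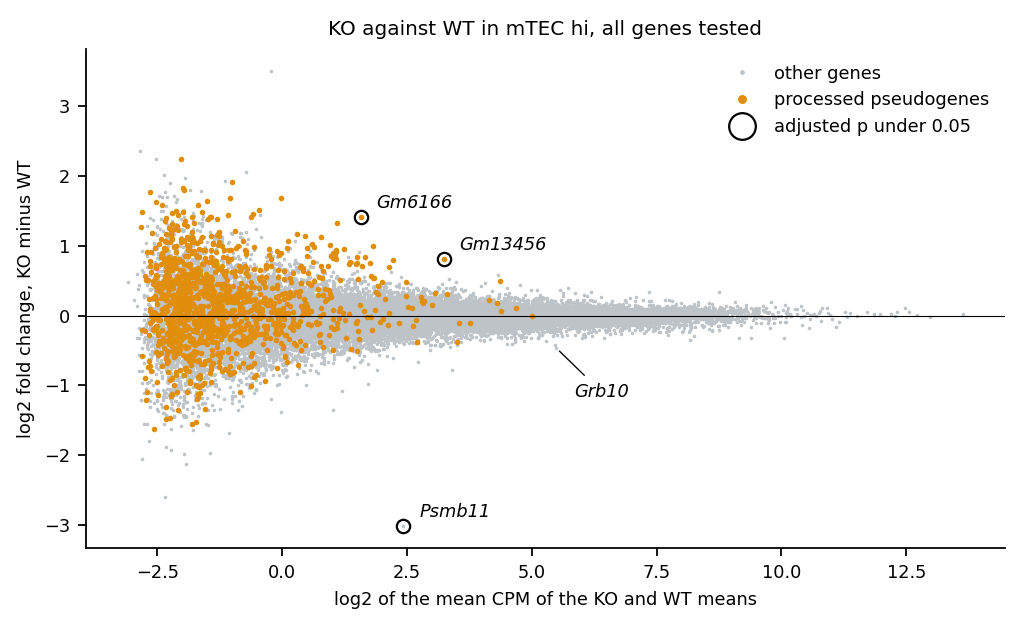
Log2 fold change (KO minus WT) against log2 of the mean CPM for all 25114 genes tested in mTEC hi, with processed pseudogenes in orange and the 3 genes at an adjusted p under 0.05 circled. Psmb11 stands at -3.01, and Gm6166 and Gm13456 stand at 1.41 and 0.81.

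A processed pseudogene is a copy of a spliced messenger RNA inserted elsewhere in the genome, usually without introns. Gm6166 (chr9:57483963-57484371, plus strand) aligned to Fabp5, which encodes a cytosolic fatty acid binding protein, with 98.3% identity over 409 bases. Gm13456 (chr2:40555752-40557116, plus strand) aligned to Eef1a1, the elongation factor that brings aminoacyl-tRNA to the ribosome, with 96.8% identity over 1390 aligned positions. Both were singled out after their values were seen. The windows below show how few bases separate each copy from its parent over a stretch of coding sequence. They come from the GENCODE M21 transcripts (GRCm38) and cover the 120 ungapped coding bases with the most mismatches. Capitals mark the bases that differ, 2 in the pair of Gm6166 and 4 in the pair of Gm13456, and the windows of the pseudogenes lie at chr9:57484223-57484342 and chr2:40556559-40556678, both on the plus strand.
Gm6166: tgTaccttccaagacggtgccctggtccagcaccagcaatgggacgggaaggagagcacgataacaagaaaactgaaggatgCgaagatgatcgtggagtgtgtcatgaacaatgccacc
Fabp5: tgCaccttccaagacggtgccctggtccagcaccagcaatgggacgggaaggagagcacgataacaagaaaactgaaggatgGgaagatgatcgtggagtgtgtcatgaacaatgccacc
Gm13456: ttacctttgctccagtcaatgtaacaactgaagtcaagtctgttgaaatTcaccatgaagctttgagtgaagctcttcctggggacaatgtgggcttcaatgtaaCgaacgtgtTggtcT
Eef1a1: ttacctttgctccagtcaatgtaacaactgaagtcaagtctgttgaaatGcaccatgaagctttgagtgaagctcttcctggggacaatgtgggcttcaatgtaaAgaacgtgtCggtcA

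Gm6166 was at 4.92, 4.55 and 3.55 CPM in KO 1, 2 and 3 and at 1.71, 1.39 and 1.82 CPM in WT 1, 2 and 3. All KO libraries were above all WT libraries, and the level rose by 1.41 on the log2 scale (SE 0.19, adjusted p = 0.0146). Gm13456 was at 12.8, 11.7 and 11.3 CPM in KO and at 7.41, 5.79 and 7.31 CPM in WT, again without overlap, and rose by 0.81 (SE 0.12, adjusted p = 0.0385). In the 4 libraries with agreeing labels, the adjusted p was 0.00873 for Gm6166 and 0.0519 for Gm13456. The call for Gm6166 was lost without KO 1, KO 2, WT 2 or WT 3 (adjusted p of 0.0877 to 0.188), and the call for Gm13456 without any library other than KO 3 (0.0509 to 0.383). In the deposited RSEM counts, which divide reads among near-identical transcripts, the differences were 0.60 (adjusted p = 0.578) and 0.56 (adjusted p = 0.148). Reads of such copies can be split between pseudogene and parent, so both values are uncertain.

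On the log2 scale the parent genes differed much less. Fabp5 was at 1378, 1491 and 1381 CPM in KO and at 1286, 1224 and 1337 CPM in WT, a log2 difference of 0.14 (SE 0.07, unadjusted p = 0.0421, adjusted p = 0.937). In CPM the KO and WT levels of Fabp5 lay further apart than those of Gm6166. Eef1a1 was at 5175, 5309 and 5069 CPM in KO and at 5149, 4869 and 4979 CPM in WT, a difference of 0.05 (SE 0.06, adjusted p = 0.988). The KO level of Fabp5 exceeded the WT level in every library, and that of Eef1a1 overlapped. The part of parent reads in the counts of the copies was not tested.

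Other processed pseudogenes with low p-values, named here after their values were seen, had the same direction without passing the test. The same choice also took Gm21092, an unprocessed pseudogene, which was lower in KO (log2 difference -1.08, adjusted p = 0.18). Rps6-ps4, identical to the messenger RNA of ribosomal protein S6 over 750 bases, was at 3.69, 2.89 and 2.62 CPM in KO and 1.26, 1.09 and 1.35 CPM in WT (log2 difference 1.32, adjusted p = 0.0533). Tpt1-ps3, identical over 519 bases to Tpt1, was at 26.3, 24.3 and 21.9 CPM in KO and 16.8, 17.6 and 16.8 CPM in WT (0.50, adjusted p = 0.118). Eif4a-ps4, Krt8-ps and Rpl14-ps1 had differences of 0.999, 0.84 and 0.80, with adjusted p of 0.134, 0.18 and 0.18. That KO and WT did not overlap was a condition for naming these pseudogenes, so it is no result. Among all genes tested, 4.85% had KO above WT without overlap. With RSEM counts the difference of Rps6-ps4 was 0.17 (adjusted p = 0.996) and those of Tpt1-ps3, Eif4a-ps4, Krt8-ps and Rpl14-ps1 were 0.36, 0.26, 0.28 and 0.15, so these values too depend on how reads of near-identical copies are assigned. Their parents Rps6, Tpt1, Eif4a1, Krt8 and Rpl14 had differences of 0.06, 0.08, 0.06, -0.0012 and 0.09, each with an adjusted p of 0.988 or more.

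**Figure D3:**
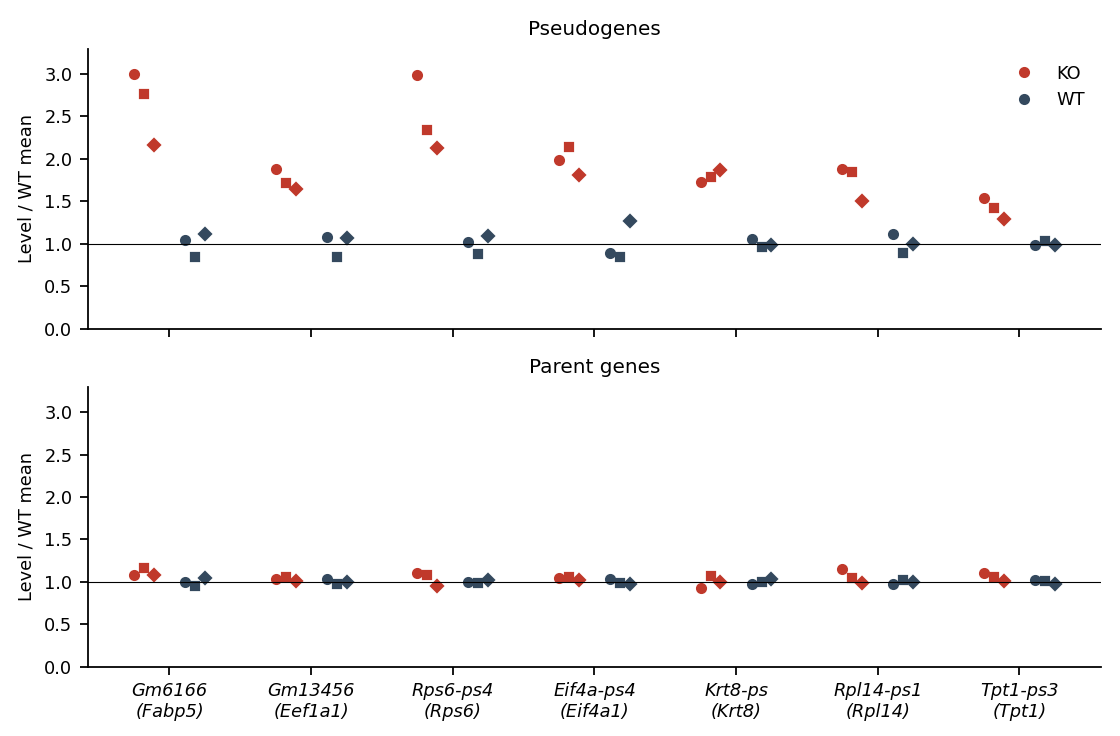
Level in each mTEC hi library divided by the WT mean, for 7 processed pseudogenes (top) and for the parent gene of each (bottom, name in brackets); symbols give the library number. KO and WT do not overlap in the top panel, which was a condition for choosing these pseudogenes. Their log2 differences are 0.50 to 1.41, while the parents lie near 1.

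Over the 1190 processed pseudogenes that passed the filter on low counts, a class looked at after seeing the data, 127 were higher and 29 lower at an unadjusted p under 0.05. That is 10.7% higher against 2.26% of all genes tested and 2.44% lower against 3%, and the median log2 difference was 0.14. In the 4 libraries with agreeing labels the counts were 115 higher and 31 lower of 1101. These were 10.4% and 2.82%, against 3.17% and 3.86% of all genes in that setting. A low gene can pass the filter through the group where it is high, so the sum over every annotated member was taken as well. The 7775 annotated processed pseudogenes summed to 1349, 1213 and 1214 CPM (of gene reads, without size factors) in KO 1, 2 and 3 and to 1190, 1091 and 1108 in WT 1, 2 and 3. Each KO sum was above each WT sum, with a ratio of means of 1.11.

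The ribosomal protein pseudogenes (symbols Rpl or Rps with -ps) showed the same direction. Of 283 annotated, 86 passed the filter. At an unadjusted p under 0.05, 22 of these were higher (25.6%, against 2.26% of all genes) and 0 lower (against 3%). All 283 together summed to 113, 96.9 and 87.3 CPM of gene reads in KO and to 75.9, 64.0 and 69.9 in WT, a ratio of means of 1.42. KO 1 was the highest and WT 2 the lowest, and the groups did not overlap. The 81 tested coding ribosomal protein genes had a median log2 difference of 0.08, with 79 above WT and 0 at an unadjusted p under 0.05; without KO 1 the median was 0.02 and 62 were above. That count of 0 depended on KO 3: without it 37 of the 81 (45.7%, against 3.23% of all genes) were higher at an unadjusted p under 0.05 and the median was 0.15. With agreeing labels only, 4 were, with a median of 0.13. In mTEC lo all processed pseudogenes summed to 907, 909 and 841 CPM of gene reads in KO and to 919, 1048 and 968 in WT, a ratio of means of 0.905 with each KO sum below each WT sum. The ribosomal ones summed there to 74.4, 71.3 and 67.3 in KO and to 67.7, 86.3 and 67.3 in WT, so the groups overlapped and only WT 2 lay above every KO library. Of the 75 ribosomal pseudogenes fitted in mTEC lo, 42 were above WT, with a median log2 difference of 0.09.

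Some library measures moved with the genotype. The share of reads outside all annotated genes was 14.2%, 13.04% and 14.8% in KO 1, 2 and 3 and 15.6%, 15.8% and 15.3% in WT 1, 2 and 3. The difference of means was -1.56 percentage points (14.03% ± 0.90 against 15.6% ± 0.24, SD, n = 3, two-sided exact permutation p = 0.1, the smallest that 3 against 3 allows). Every KO library was below every WT library, and the same held in mTEC lo (8.69% ± 1.21 against 10.6% ± 0.54). Reads mapped to several places made up 6.22% to 6.56% in KO and 6.14% to 6.26% in WT. Several noncoding classes had medians below 0, unlike the processed pseudogenes: sense intronic genes had a median of -0.19 with 25 of 95 above WT, antisense genes -0.09 with 479 of 1252 above, and snoRNA genes -0.22 with 29 of 92 above. The part of these measures in the gene results was not tested.

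Proteasome genes other than Psmb11 lay close to their WT levels. Of 29 structural subunits of the 26S proteasome, 27 were above WT against 49.7% of all genes, with a median log2 difference of 0.06 and a range from -0.0045 to 0.12. None of the 29 had an unadjusted p under 0.05, and the lowest was Psma1, an alpha ring subunit, at 161.3, 148.0 and 145.5 CPM in KO and 137.8, 143.7 and 137.2 CPM in WT. In the 4 libraries with agreeing labels 28 were above WT and the median was 0.09; without KO 1 it was 24 and 0.03. The 6 other catalytic subunits had a median of 0.04 with 4 above. Of 12 activators and assembly factors 10 were above WT, and Psmg4, an assembly chaperone, had the largest difference at 0.18 (SE 0.09, adjusted p = 0.949). In mTEC lo all 29 structural subunits were above WT, with a median of 0.13.

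Genes of MHC presentation showed no shared direction. Of 11 class I genes 6 were above WT and of 9 class II genes 5 were, with medians of 0.0044 and 0.0054. B2m, the light chain of class I molecules, was at 5854, 6030 and 5793 CPM in KO and 5271, 5809 and 5394 CPM in WT (log2 difference 0.10, SE 0.06, adjusted p = 0.967). H2-Ob, a chain of the modulator of class II loading, had a difference of -0.14 (SE 0.07, adjusted p = 0.956). None of the 20 genes had an unadjusted p under 0.05.

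No listed regulator or antigen of mature mTEC passed the adjusted test. Aire, the transcriptional regulator of tissue-restricted antigens, was at 2200, 1844 and 2149 CPM in KO and 2212, 2217 and 2488 CPM in WT, a log2 difference of -0.16 (SE 0.08, adjusted p = 0.949). The highest KO library lay just under the lowest WT library. Of 14 mature mTEC genes 11 were below WT, with a median of -0.03 and 0 at an unadjusted p under 0.05. Of 13 tested Aire-dependent antigens 10 were above WT, 2 of them (15.4%, against 2.26% of all genes) with an unadjusted p under 0.05, and the casein gene Csn3 was at 8.68, 8.33 and 8.88 CPM in KO against 7.47, 7.14 and 5.57 CPM in WT (0.35, adjusted p = 0.852). Of 12 Fezf2-dependent antigens 8 were above, 2 of them (16.7%, against 2.26%) with an unadjusted p under 0.05, and the differences ran from -0.13 to 0.53. Apoa4, an intestinal apolipoprotein, was at 38.3, 42.6 and 40.2 CPM in KO and 32.04, 31.5 and 36.9 CPM in WT (0.27, adjusted p = 0.726). Krt15, a keratin of basal epithelium from the list of immature mTEC genes, had a difference of 0.25 (adjusted p = 0.727), and 8 of that list's 10 genes were above WT.

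**Figure D4:**
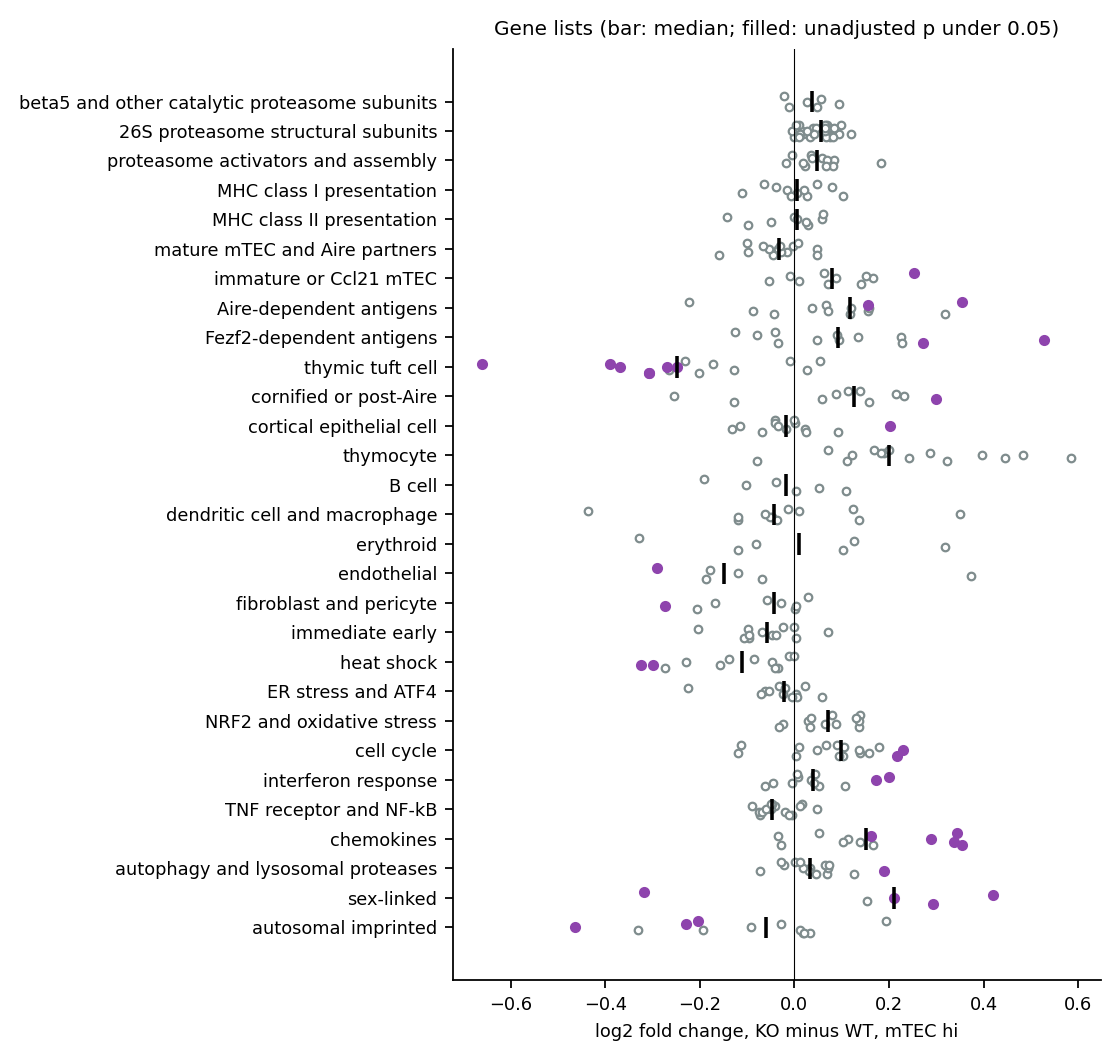
Log2 fold change (KO minus WT) of the members of each gene list in mTEC hi, one circle per gene, filled at an unadjusted p under 0.05; black bars are list medians, and Psmb11 is left out. Thymic tuft cell genes have a median of -0.25 and chemokine genes of 0.15, while proteasome and MHC lists lie near 0.

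Most tuft cell genes were below WT; tuft cells of the thymus are a chemosensory epithelial type found in the medulla. Of 15 genes 13 were lower, 7 of them with an unadjusted p under 0.05 against 3% of all genes tested, and the median was -0.25. None passed the adjusted test. KO lay below WT without overlap for 1 of the 15, Gnat3, against 5.32% of all genes. The list was chosen with earlier results of these data known, so these counts are not independent of the data. With all 12 libraries in 1 fit, 3 of the 15 were lower at an unadjusted p under 0.05, against 1.67% of all genes. Gnat3, the taste G protein subunit gustducin, was at 23.2, 27.2 and 23.6 CPM in KO and 28.6, 27.6 and 35.5 CPM in WT (-0.31, SE 0.10, adjusted p = 0.739). Plcb2, a phospholipase of taste signalling, was at 48.2, 65.7 and 66.2 CPM in KO and 67.6, 64.9 and 91.0 CPM in WT. Il25, a cytokine made by tuft cells, was at 1.59, 2.75 and 2.51 CPM in KO and 2.01, 3.87 and 4.99 CPM in WT. WT 3 was the highest library for most of these genes and KO 1 often the lowest. Without WT 3 the median was -0.08 and 0 of 15 had an unadjusted p under 0.05, and without KO 1 it was -0.17 with 2. In the 4 libraries with agreeing labels it was -0.31, with 14 below WT. Pou2f3, the transcription factor that tuft cells need, had a difference of 0.03. In mTEC lo all 15 were below WT, with a median of -0.28, against 9852 of the 19801 genes tested in both cell types. In such mixed RNA, fewer tuft cells and less RNA of these genes per cell cannot be told apart.

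Chemokine genes were mostly above WT. Of 12 genes 10 were higher, 5 of them with an unadjusted p under 0.05 against 2.26% of all genes tested, and the median was 0.15; none passed the adjusted test. Ccl9 was at 79.8, 91.6 and 74.1 CPM in KO and 60.8, 71.1 and 62.2 CPM in WT (0.34, SE 0.08, adjusted p = 0.458). Ccl22, a ligand of CCR4, was at 162.7, 218.3 and 163.5 CPM in KO and 144.3, 153.8 and 130.3 CPM in WT. Ccl2, a ligand of CCR2, was at 24.7, 26.4 and 24.6 CPM in KO and 18.5, 22.3 and 21.1 CPM in WT. KO 2 was the highest library for each of these 3 genes. The groups did not overlap for 5 of the 12 genes, the other 2 being Ccl17 and Ccl20, against 4.85% of all genes. In the 4 libraries with agreeing labels 11 were above WT and 5 had an unadjusted p under 0.05 (3.17% of all genes); without KO 2 the numbers were 10 and 3 (1.62%). Ccl6, which is not on the list and was named by its low p, was at 26.2, 27.1 and 24.2 CPM in KO and 18.5, 20.3 and 19.9 CPM in WT (0.40, adjusted p = 0.275).

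**Figure D5:**
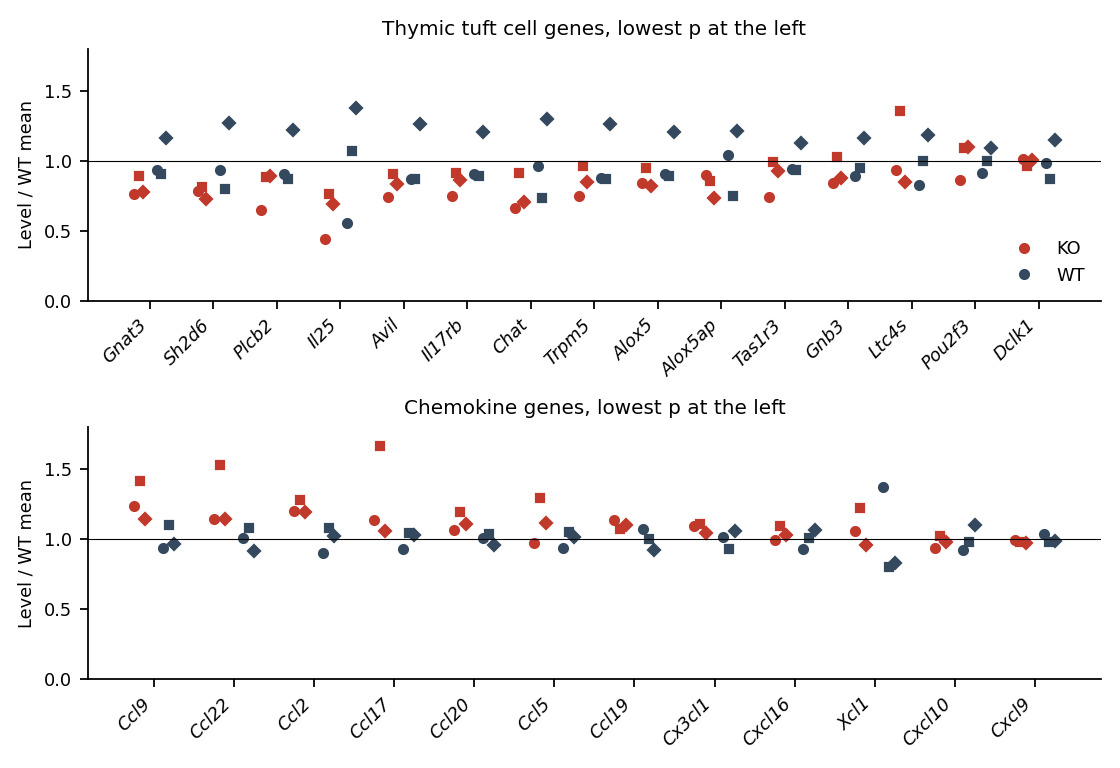
Level in each mTEC hi library divided by the WT mean for 15 thymic tuft cell genes (top) and 12 chemokine genes (bottom), ordered by p; symbols give the library number. WT 3 (dark diamond) is the highest WT library for most tuft genes, and KO 2 (red square) is the highest KO library for Ccl9, Ccl22 and Ccl2.

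The coding and long noncoding genes of lowest p were given as values, since none passed the adjusted test. Grb10, an imprinted adaptor that dampens insulin and IGF receptor signalling, was at 38.2, 33.9 and 41.0 CPM in KO and 51.5, 54.6 and 50.2 CPM in WT (-0.46, SE 0.08, adjusted p = 0.0814). In mTEC lo its difference was -0.38, and the groups did not overlap there either, as for 9.19% of the genes tested in mTEC lo with KO lower. Peg3, an imprinted zinc finger gene, was at 34.5, 31.2 and 37.9 CPM in KO and 42.2, 40.6 and 39.0 CPM in WT. Plagl1, an imprinted transcription factor gene, had a difference of -0.20. Of 12 imprinted genes 7 were below WT, 3 of them (25% of the list, against 3% of all genes) with an unadjusted p under 0.05, and the median was -0.06. KO and WT did not overlap for 3 of the 12, each with KO lower, against 5.32% of all genes.

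Miat, a long noncoding RNA retained in the nucleus, was at 40.5, 33.3 and 39.3 CPM in KO and 49.99, 51.2 and 50.2 CPM in WT (-0.42, adjusted p = 0.176). Neat1, the scaffold RNA of nuclear paraspeckles, was at 643, 553 and 596 CPM in KO and 721, 735 and 793 CPM in WT (-0.33, adjusted p = 0.328). Both lay below WT in every KO library, but a lack of overlap was a condition for naming them. Among all genes tested, 5.32% had KO below WT without overlap. Ints6l and Snhg11 had differences of -0.32 and -0.38. On the higher side, Lamb3, a laminin chain of the epithelial basement membrane, was at 63.0, 65.5 and 64.8 CPM in KO and 49.9, 50.8 and 54.3 CPM in WT (0.32, adjusted p = 0.274). Sec1, Skor2 and Kcnf1 had differences of 0.36, 0.77 and 0.87, each with an adjusted p of 0.456.

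No gene of the stress and growth lists passed the adjusted test. All 12 heat shock genes were below WT, with a median of -0.11, and 2 of them (16.7%, against 3% of all genes) had an unadjusted p under 0.05. Hsph1, a chaperone of the Hsp110 family, was at 230, 298 and 290 CPM in KO and 268, 361 and 377 CPM in WT (-0.30, adjusted p = 0.886), and the groups overlapped. Without KO 1, 5 of the 12 were above WT and none had an unadjusted p under 0.05, and in the 4 libraries with agreeing labels 12 were below and 6 had one, against 3.86% of all genes. Of 12 NRF2 and oxidative stress genes 10 were above WT, led by Hmox1 (0.14, adjusted p = 0.956), and of 12 ER stress genes 8 were below, led by Chac1 (-0.22). Of 16 cell cycle genes 14 were above, 2 of them (12.5%, against 2.26%) with an unadjusted p under 0.05, and Birc5, a mitotic survivin gene, had a difference of 0.23. Of 12 interferon response genes 9 were above, 2 of them (16.7%, against 2.26%) with an unadjusted p under 0.05, and Ifit2 was at 0.17; of 15 TNF receptor and NF-kB genes 12 were below, with Traf3 at -0.09. Of 15 autophagy and lysosomal protease genes 12 were above, with the aspartic protease Ctsd at 0.19. Of 12 immediate early genes 10 were below, with Egr2 at -0.20. Of 10 cornified genes 8 were above, with Krtdap at 0.30.

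Genes near Psmb11 and on the sex chromosomes were described as well. Within 5 Mb of the start of Psmb11, 103 of 193 tested genes were above WT, with a median of 0.01, and 3 were higher and 6 lower at an unadjusted p under 0.05 (4.66%, against 5.26% of all genes). Il25 of the tuft list is one of the 6 lower ones. Of the 4 Y-linked genes on the list, Uty was at 18.7, 18.3 and 17.6 CPM in KO and 11.9, 14.4 and 14.4 CPM in WT (0.42, adjusted p = 0.449). A lack of overlap was a condition for naming Uty, so for that gene it is no result. Ddx3y and Kdm5d also did not overlap. That makes 3 of the list's 5 genes with KO above WT without overlap, against 4.85% of all genes. Xist, the RNA of the inactive X chromosome, was at 783, 886 and 1175 CPM in KO and 1156, 1283 and 1106 CPM in WT (-0.32). Y-linked RNA and Xist were thus present in all 6 libraries. Of the list's 5 genes 3 were higher and 1 lower at an unadjusted p under 0.05, against 2.26% and 3% of all genes, and none passed the adjusted test. The median log2 difference was 0.21. In the 4 libraries with agreeing labels the counts were again 3 and 1, against 3.17% and 3.86% of all genes, with a median of 0.25. Without KO 3, Xist passed the adjusted test. In mTEC lo the groups overlapped for Uty, with a difference of 0.11. The part of these differences in the other results was not tested.

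Markers of other cell types varied between libraries of one title. Of 15 tested thymocyte genes 14 were above WT, with a median of 0.20 and summed levels of 217 to 395 CPM in KO and 222 to 299 CPM in WT. Rag1, the recombinase gene of immature lymphocytes, was at 46.4, 13.6 and 12.02 CPM in KO and 25.0, 11.1 and 11.8 CPM in WT, so KO 1 and WT 1 were high. Without KO 1 the median was -0.25 and 2 of 15 were above WT. In the 4 libraries with agreeing labels, which hold KO 1 but not WT 1, it was 0.73 and 13 of 15 were higher at an unadjusted p under 0.05, against 3.17% of all genes. Cortical epithelial genes had 5 of 13 above WT, led by the protease gene Ctsl (0.20, adjusted p = 0.852). B cell, dendritic cell and macrophage, erythroid and fibroblast lists had medians between -0.04 and 0.01. Their leading genes were Pax5 (0.11), Zbtb46 (-0.12), Hbb-bs (-0.33) and Col1a2 (-0.27). Of 6 endothelial genes 5 were below WT, with a median of -0.15, and Tek had a difference of -0.29 (adjusted p = 0.832); their summed level was 47.4 to 50.5 CPM in KO and 46.6 to 68.6 CPM in WT. The endothelial median was 0.11 in the 4 libraries with agreeing labels.

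The same comparison in mTEC lo called 1 of 20356 genes (0.00491%), again Psmb11, whose level fell by 2.72 there. A fit of all 12 libraries tested whether the genotype difference itself differed between mTEC hi and mTEC lo. Of 26372 genes none passed with edgeR, 1411 (5.35%) had an unadjusted p under 0.05, and DESeq2 called 3, Pappa2, Fabp6 and Retnlg. Pappa2, a metalloprotease that cuts IGF binding proteins, had the lowest p, with a difference of 0.12 in mTEC hi and -0.56 in mTEC lo (adjusted p of the interaction = 0.121). Reg3b, an antibacterial lectin gene, was at 32.9, 35.4 and 38.9 CPM in KO and 28.8, 24.7 and 30.3 CPM in WT in mTEC hi, with differences of 0.36 and -1.42 in mTEC hi and lo. Fabp6, the ileal bile acid binding protein, had 0.12 and 1.08. Gm6166 and Gm13456 had differences of 0.75 and -1.32 in mTEC lo, and neither passed the interaction test. Gm13456 was at 5.65, 8.87 and 6.39 CPM in KO and at 5.95, 11.5 and 34.6 CPM in WT in mTEC lo, so the groups overlapped and WT 3 stood far above the other libraries.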

How the data were processed

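Per the submitters' processing notes, the authors used CASAVA 1.8.2, STAR 2.5.1b and RSEM 1.2.28; the notes name a human build although the identifiers are mouse, and no source used here names the annotation. The deposited read counts per gene (the unstranded column, since one of the strand columns held 50.4% to 50.8% of their sum) were tested; whether they count reads or pairs is not given. The deposited RSEM expected counts, rounded to whole numbers, served as an alternative, and the deposited TPM gave levels across genes. Rows of reads in no gene, in several places, ambiguous or unmapped were kept out of library sizes and tests. Of 50600 identifiers 50376 matched GENCODE M21.

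Genotype came from the titles. edgeR 4.0.16 in R 4.3.3 fitted the 6 mTEC hi libraries with filterByExpr (count minimum 10, total minimum 15), TMM, the quasi-likelihood F test and Benjamini-Hochberg adjustment at 0.05, without a block. Replicates did not match within sampling noise. The test was checked on simulated data. DESeq2 1.42.0 was an alternative, and blastn 2.17.0 aligned pseudogenes to coding transcripts.

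The members and the 31 gene lists were chosen with earlier results of these data known. A list's share beside that of all genes is therefore not independent of the data. Named genes were Psmb11, Psmb5 and Psmb8, the 6 strongest in each direction (called, else lowest p, with a mean of at least 1 CPM, no overlap, and no pseudogene, Gm or Rik symbol), the lowest p in each list, and the 3 lowest p of the interaction. Gm4491, the lowest p within 5 Mb of Psmb11, had a difference of -0.89.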

Additional observations from a re-analysis of the deposited data

How the results depend on the processing

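Psmb11 kept its direction in all settings and its call in all but 1: with the genotype from the source name the difference was -0.85. Without single libraries it ranged from -3.13 to -2.86. The count of 3 genes in mTEC hi was 24 with DESeq2, 85 without a filter on low counts, 1 with all 12 libraries in 1 fit, 1 with a minimum change of 1.5-fold, 0 with the genotype from the source name, and 1 to 8 when single libraries were left out. It was 8 without KO 3 and 1, Psmb11 alone, without KO 1, KO 2, WT 2 or WT 3. In mTEC lo the count of 1 became 267 with DESeq2, 593 without a filter and 1 to 3 without single libraries. For the interaction the count of 0 became 3 with DESeq2 and 145 without a filter. The cause of these shifts was not tested. The title's number may pair the libraries. The deviations of same-numbered libraries correlated by 0.078, 0.020 and 0.0082, and only KO 1 correlated best with its own number. Such correlations over all genes cannot tell whether libraries of the same number were paired. With that number as a replicate block the counts were 9 in mTEC hi, where Grb10, Miat, Rps6-ps4, Tpt1-ps3, Eif4a-ps4 and Rpl14-ps1 joined the 3 genes, and 21 in mTEC lo. Signs turned for Rag1 (-0.33 without KO 1, up to 1.07 without WT 1), Hbb-bs (0.030 with RSEM counts, and -0.55 to 0.079 without single libraries) and Psmb8 (0.0047 with agreeing labels, and -0.059 without KO 2 to 0.035 without KO 3). The share of reads in no gene kept its sign, from -1.94 to -1.06 without single libraries. The pseudogene class median lay between 0.10 and 0.20 in each setting where it was computed.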
